A study of Mus musculus with 9 samples.

Results

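The classical complement components and the C3a receptor were followed as 10 genes: C1qa, C1qb, C1qc, C1ra, C1s1, C2, C4b, C3, C3ar1 and Serping1. They were chosen by name, with earlier results of these data known, so contrasts of the members with all genes only describe. All 10 were found among the 18138 genes of the count table, and all 10 were among the 14756 genes with enough counts to be tested. RNA had been sequenced from mouse brain in 9 libraries, 3 per group. One group had MCAO, the closing of the middle cerebral artery as a model of stroke, and then received hypidone hydrochloride at 5 mg/kg for 7 days. Another had MCAO surgery with no drug named, and the last was labelled control. The sources used here give no strain, age, sex, brain region, hemisphere, sham surgery, vehicle or time after surgery. Libraries are called by group and by the number in their title: hypidone 2, 7 and 8, MCAO 4, 5 and 6, and control 4, 5 and 6. Whether each library is its own animal is not stated, so the p-values speak only for the spread among these libraries, part of which may be technical.

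The classical pathway begins when C1q, a collagen-like protein of A, B and C chains, binds a target and activates the proteases C1r and C1s. These cut C4 and C2 into an enzyme that cleaves C3, and the C3a fragment released acts on the receptor C3ar1, while Serping1, the C1 inhibitor, blocks C1r and C1s. In the brain C1q comes mainly from microglia, C3 and C4 can be made by astrocytes, and the pathway is known for tagging synapses that microglia remove.

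The libraries held 32075682 to 37325027 gene counts. They carried the transcripts of brain: the 7 neuron markers summed to at least 5582 CPM (counts scaled with TMM to a common library size) in every library. MCAO 5 and control 5 stood apart from the other libraries. MCAO 5 had the highest level of all 10 members. Control 5 held 193 CPM of the 5 choroid plexus markers, against at most 11.4 CPM in any other library. Ttr made 153 CPM of the sum in control 5. The part of these markers in the levels of the members was not tested.

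Each gene lay on the mm10 assembly in a place that GENCODE M21 annotates as protein-coding. C1qb, C1qc and C1qa stood side by side on the minus strand of chromosome 4, within 18675 bases, from 136880129 to 136886187, from 136889804 to 136893065 and from 136895917 to 136898803. C1ra (124512405 to 124523443, plus strand), C1s1 (124530345 to 124542359, minus strand) and C3ar1 (122847138 to 122856161, minus strand) were on chromosome 6. C4b (34728380 to 34743882), C2 (34862604 to 34898265) and C3 (57203970 to 57228136) were on the minus strand of chromosome 17. Serping1 was on chromosome 2, from 84765387 to 84775444 on the minus strand.

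Promoter windows of 250 bases before and 50 bases after the start site were held for 6 of the 10 genes in RefSeq's GRCm38.p6 table. Those of C1qb, C1qc and C3ar1 are shown because these genes moved together across libraries, and that of C3 because its product is the source of the C3ar1 ligand. Capitals mark matches on either strand to the PU.1 core GAGGAA, the C/EBP motif TTGCNNAA, the STAT motif TTCNNNGAA or the TATA box TATAAA, and the interferon response element was searched as well. PU.1, encoded by Spi1, is the main lineage factor of microglia and macrophages. Windows are at chr4:136886151-136886450, chr4:136892865-136893164, chr6:122856108-122856407 and chr17:57228087-57228386, each on the minus strand.
C1qb: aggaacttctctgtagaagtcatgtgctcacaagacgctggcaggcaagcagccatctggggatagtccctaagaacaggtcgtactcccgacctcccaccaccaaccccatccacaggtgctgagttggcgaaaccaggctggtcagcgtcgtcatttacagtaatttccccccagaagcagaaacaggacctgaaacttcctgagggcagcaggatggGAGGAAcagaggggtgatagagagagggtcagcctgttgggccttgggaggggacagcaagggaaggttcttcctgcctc
C1qc: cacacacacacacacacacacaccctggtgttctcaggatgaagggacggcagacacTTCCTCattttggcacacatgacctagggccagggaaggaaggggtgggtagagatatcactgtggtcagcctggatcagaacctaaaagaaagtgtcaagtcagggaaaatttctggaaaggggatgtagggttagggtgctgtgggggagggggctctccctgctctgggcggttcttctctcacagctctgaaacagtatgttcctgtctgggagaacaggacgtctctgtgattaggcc
C3ar1: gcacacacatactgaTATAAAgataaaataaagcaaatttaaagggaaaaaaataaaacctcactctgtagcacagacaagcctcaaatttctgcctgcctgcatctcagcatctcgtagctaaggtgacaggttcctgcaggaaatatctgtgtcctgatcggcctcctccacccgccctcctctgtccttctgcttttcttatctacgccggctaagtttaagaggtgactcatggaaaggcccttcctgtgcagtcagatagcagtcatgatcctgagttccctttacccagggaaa
C3: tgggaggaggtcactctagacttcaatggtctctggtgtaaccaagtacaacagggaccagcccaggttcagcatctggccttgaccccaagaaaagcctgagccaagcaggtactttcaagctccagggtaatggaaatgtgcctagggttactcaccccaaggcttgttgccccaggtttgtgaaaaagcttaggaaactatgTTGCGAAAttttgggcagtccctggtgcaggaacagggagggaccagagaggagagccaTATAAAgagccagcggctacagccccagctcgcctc

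The PU.1 core stood 30 bases before the start site of C1qb and, on the opposite strand, 193 bases before that of C1qc. C1ra held it too, after its start site, while C3ar1 did not. It was found in 28.3% of all 32851 promoter windows. The C/EBP match of C3 stood 45 bases before its start site. C1ra and C1s1 held this motif as well, and it was in 10.8% of windows. C3ar1 held a TATA box motif, present in 13.6% of windows, at 235 bases before its start. C3 held this motif too, 14 bases after its start. The interferon element, in 3.44% of windows, was in none of the 7 windows of these 6 genes, since C1s1 has 2 windows. The STAT motif, in 8.30% of windows, was in that of C1ra alone. Promoters of C1qa, C2, C4b and Serping1 were not analysed here.

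Per unit of gene length (FPKM, as deposited), the C1q chains were far more abundant than the rest of the pathway in every group. C1qb averaged 87.4 ± 8.56 FPKM in hypidone, 438 ± 403 in MCAO and 68.7 ± 5.38 in control libraries (SD, n = 3 each). C1qc and C1qa followed, at 73.2 ± 8.71 and 68.7 ± 6.75 FPKM in hypidone, 378 ± 319 and 286 ± 245 in MCAO, and 59.0 ± 5.15 and 58.0 ± 7.29 in control. Ranges of these chains overlapped as neighbours in that order within each group. Next came Serping1, then C4b, and in hypidone and control libraries C1ra, C3ar1, C2, C1s1 and C3 in that order. Serping1 was well below C1qa, with 8.98 ± 5.81, 23.0 ± 22.6 and 3.80 ± 1.02 FPKM of Serping1 in hypidone, MCAO and control. C3 was the lowest in each group, with a mean of 0.0687 FPKM in hypidone, 0.522 in MCAO and 0.0929 in control. In MCAO libraries C3ar1, at 11.8 ± 14.8 FPKM, came before C1ra at 5.51 ± 3.34, with overlapping ranges. The ranges of neighbours were apart only between C1qa and Serping1 in all groups, between C1ra and the next gene in all groups, and between C1s1 and C3 in hypidone.

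**Figure D1:**
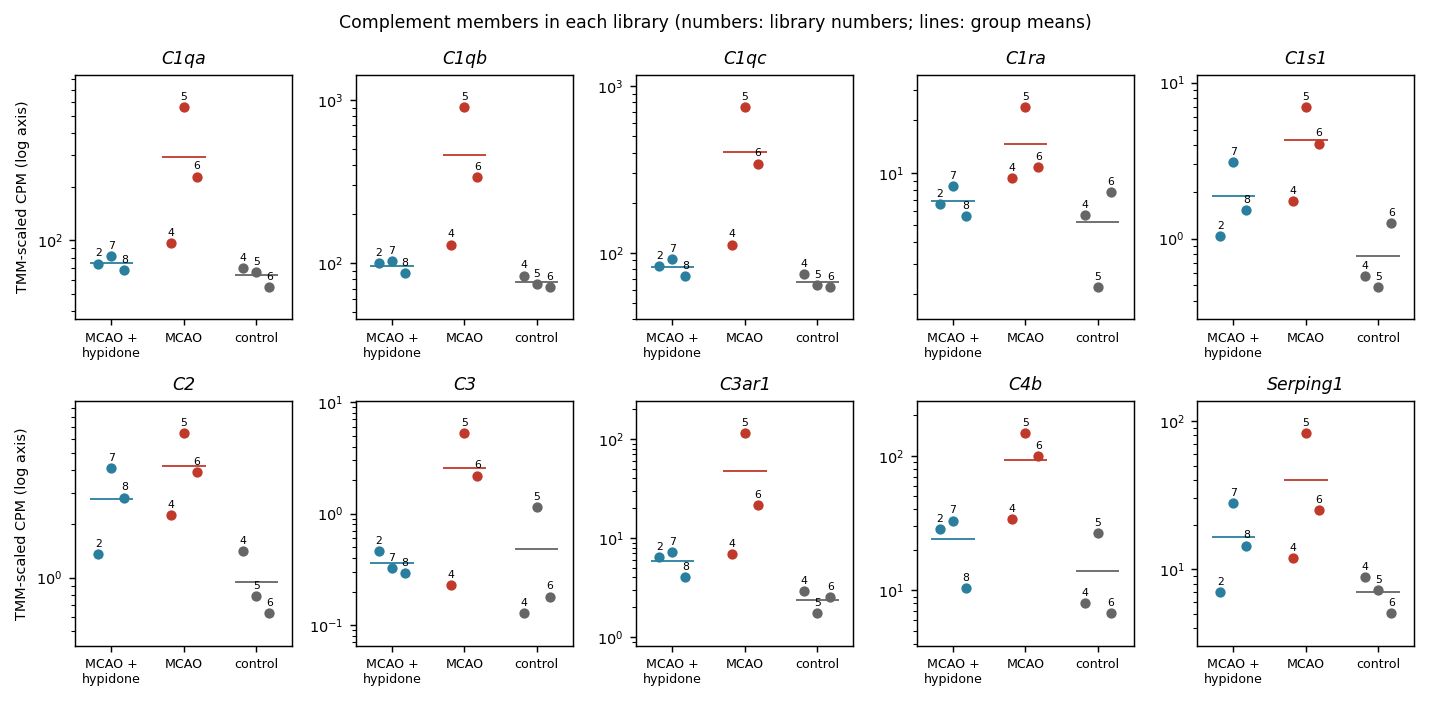
TMM-scaled CPM (log axis) of the 10 complement members in each library, with the hypidone, MCAO and control groups from left to right. Points carry library numbers and lines are group means. MCAO 5 is the highest point in all 10 panels.

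The first comparison is of MCAO with control. With no sham surgery named, the injury cannot be told apart from the surgery. Of the 10 members, 8 rose and 0 fell in edgeR's quasi-likelihood test, with Benjamini-Hochberg adjustment over all genes at 0.05, against 10.6% of all tested genes higher and 9.81% lower. The 3 C1q chains, C1s1, C2, C4b, C3ar1 and Serping1 rose, and C1ra and C3 did not pass. The median log2 fold change of the 10 was 2.48, against 0.01 over all tested genes. All 3 MCAO libraries were above all 3 control libraries for 9 members and below them for 0, against 16.5% and 17% of all genes. The size of the rise differed widely between the MCAO libraries, and the calls rested on a spread estimated from all 9 libraries: fitted on the MCAO and control libraries alone, 0 of the 10 were called (edgeR adjusted p between 0.0574 and 0.0771 for the 8).

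The chains of C1q, the recognition protein, rose together. C1qa was at 96.8, 560 and 227 CPM in MCAO 4, 5 and 6, against 69.5, 66.2 and 54.7 CPM in control 4, 5 and 6. C1qb was at 130, 908 and 337 CPM in these MCAO libraries, against 84.1, 74.6 and 71.6 CPM in control. C1qc was at 112, 752 and 344 CPM, against 74.3, 64.4 and 62.4 CPM. Control libraries were tight, MCAO 4 lay above them at 1.52 to 1.69 times the control mean, and MCAO 5 was the highest for each chain. The log2 fold changes were 2.22 ± 0.51 for C1qa, 2.58 ± 0.56 for C1qb and 2.59 ± 0.54 for C1qc (SE), with edgeR adjusted p of 0.0193, 0.0160 and 0.0139. With MCAO 5 left out these were 1.37, 1.62 and 1.78, all still called (edgeR adjusted p = 0.0154, 0.0107 and 0.0132).

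The proteases that C1q carries, and the substrates they cut, were far lower. They were less even than C1q among control libraries and more even among MCAO libraries. In control the SD was 43.5% to 80.5% of the mean for these genes, against 8.48% to 12.3% for the C1q chains. In MCAO it was 50.4% to 61.7%, against 80.5% to 87.9%. C1s1, the protease that cleaves C4 and C2, was at 1.73, 6.98 and 4.06 CPM in MCAO 4, 5 and 6, against 0.575, 0.489 and 1.26 CPM in control 4, 5 and 6. Its log2 fold change was 2.45 ± 0.65 (edgeR adjusted p = 0.0300). C1ra, which activates C1s, was at 9.30, 23.9 and 10.8 CPM in MCAO and 5.72, 2.20 and 7.75 CPM in control. The MCAO values of C1ra lay above those of control without passing the test, at 1.49 ± 0.49 (edgeR adjusted p = 0.0588). C2, which supplies the protease of the C3-cleaving enzyme, was at 2.25, 6.46 and 3.93 CPM in MCAO and 1.41, 0.787 and 0.631 CPM in control, a change of 2.16 ± 0.56 (edgeR adjusted p = 0.0275). C4b, a complement C4 gene, was at 33.9, 147 and 99.7 CPM in MCAO and 8.08, 26.7 and 6.76 CPM in control. Control 5 was at least 3 times the other controls for C4b, and MCAO 4 was only slightly above it. The C4b change was 2.76 ± 0.71 (edgeR adjusted p = 0.0275), and 3.65 without control 5. The near-identical copies C1rb and C1s2 held 9 and 24 counts over all libraries, and C4a, the near-identical copy of C4b, was not analysed here.

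C3, the central component, was nearly undetected in some libraries of both groups. It had 8, 202 and 80 counts in MCAO 4, 5 and 6, against 4, 42 and 6 counts in control 4, 5 and 6. The groups overlapped, since control 5 lay above MCAO 4. The log2 fold change of C3 was 2.39 ± 1.07 (edgeR adjusted p = 0.141), or 4.02 ± 1.19 without control 5 (edgeR adjusted p = 0.0481) and 2.92 without MCAO 4 (edgeR adjusted p = 0.0357). C3ar1, the receptor for C3a on myeloid cells, showed the largest change of the 10 members. It was at 6.85, 115 and 21.6 CPM in MCAO 4, 5 and 6, against 2.91, 1.74 and 2.52 CPM in control. Every MCAO library exceeded every control library, and MCAO 5 was 16.7 times MCAO 4. The log2 fold change was 4.32 ± 0.91 (edgeR adjusted p = 0.0144), and 2.59 without MCAO 5 (edgeR adjusted p = 0.00798).

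Serping1, which encodes the inhibitor of C1r and C1s, was at 11.8, 82.6 and 25.1 CPM in MCAO 4, 5 and 6, against 8.88, 7.20 and 5.05 CPM in control 4, 5 and 6. Its log2 fold change of 2.50 ± 0.72 (edgeR adjusted p = 0.0389) was 1.41 without MCAO 5 and then not called (edgeR adjusted p = 0.0924). Calls of members were also lost with other single libraries left out. Without control 6 the number called was 0, without control 4 it was 2, without MCAO 6 it was 4, and without MCAO 5 or hypidone 8 it was 5, with edgeR adjusted p of 0.0504 to 0.125 for the lost calls. Without control 5, C1s1, C2 and Serping1 lost their calls, with edgeR adjusted p of 0.0620 to 0.0776, and C3 gained one. Without MCAO 4 all 10 were called. The direction of each member was the same in all these fits. By the q-values of the authors' deposited table, 9 of the 10 were higher in MCAO at 0.05, all but C3, whose q was 0.142.

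**Figure D2:**
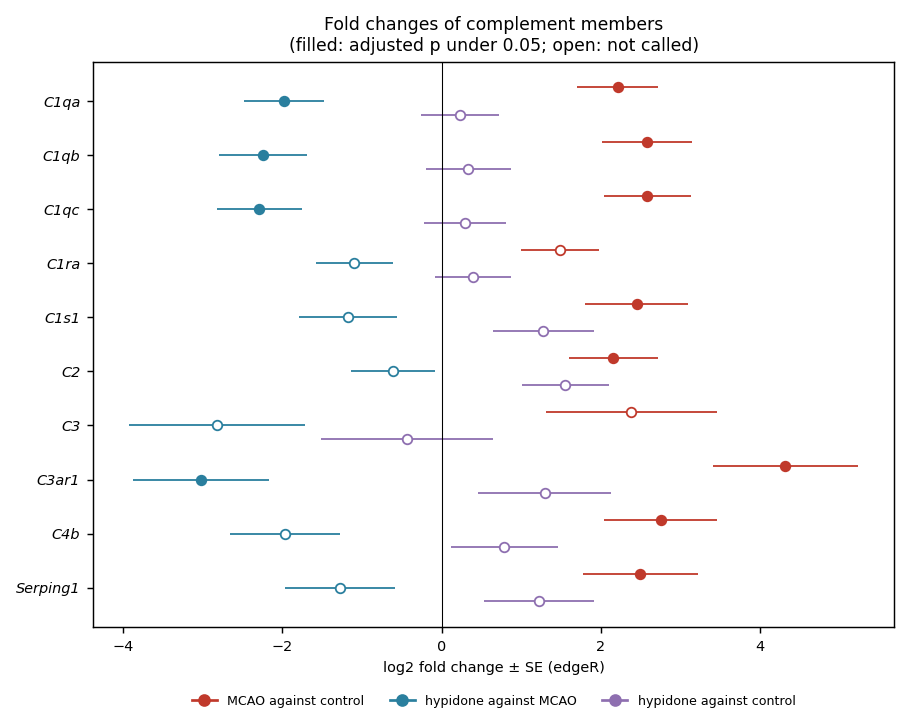
Log2 fold change with its SE (edgeR) for each member in the 3 comparisons. Filled points have an adjusted p under 0.05. In MCAO against control 8 of 10 points are filled and all lie above 0, in hypidone against MCAO 4 are filled and all lie below 0, and in hypidone against control none is filled.

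The next comparison sets hypidone after MCAO against MCAO with no drug named. With no vehicle, dosing or time after surgery given for the MCAO group, the drug cannot be told apart from its dosing procedure or from time. The comparison shares the MCAO libraries with the one above, so a high MCAO library enters both. Of the 10 members, 4 fell and 0 rose, against 8.28% of all tested genes lower and 8.23% higher: the 3 C1q chains and C3ar1 fell. The median log2 fold change of the 10 was -1.98, against -0.04 over all genes. All hypidone libraries lay below all MCAO libraries for 5 members, namely the C1q chains, C1ra and C4b, and above them for 0, against 19% and 20.9% of all genes. The same comparison was made for markers of blood and vessels. The 5 erythrocyte markers, all called higher by edgeR, summed to 71.3 to 187 CPM in hypidone and 4.31 to 28.03 CPM in MCAO libraries, against 41.9 to 72.7 CPM in control. The 6 endothelial markers, 1 of them called lower, summed to 159 to 191 CPM in hypidone and 199 to 399 CPM in MCAO libraries, against 106 to 179.9 CPM in control. Their part in the levels of the members was not tested.

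C1qa was at 74.0, 81.8 and 68.1 CPM in hypidone 2, 7 and 8, against 96.8, 560 and 227 CPM in MCAO 4, 5 and 6. C1qb was at 101, 103 and 86.6 CPM with the drug, and C1qc at 83.1, 91.4 and 72.8 CPM. The hypidone libraries were close to each other, and MCAO 4, the nearest MCAO library, lay above the highest of them. Log2 fold changes were -1.98 ± 0.50 for C1qa, -2.24 ± 0.56 for C1qb and -2.29 ± 0.54 for C1qc (edgeR adjusted p = 0.0304, 0.0275 and 0.0230). C3ar1 was at 6.36, 7.20 and 4.04 CPM in hypidone 2, 7 and 8, and MCAO 4, at 6.85 CPM, lay inside that range. Its change was -3.02 ± 0.85 (edgeR adjusted p = 0.0427).

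The remaining 6 members did not pass the test. C4b was at 28.4, 33.1 and 10.3 CPM in hypidone 2, 7 and 8, just under the 33.9 CPM of MCAO 4, with a change of -1.97 ± 0.69 (edgeR adjusted p = 0.0770). C3 had 16, 11 and 10 counts with the drug, all above the 8 counts of MCAO 4, and a change of -2.82 ± 1.10 (edgeR adjusted p = 0.105). C1ra, C1s1 and Serping1 had changes of -1.09 ± 0.48, -1.18 ± 0.61 and -1.27 ± 0.69, with edgeR adjusted p of 0.142, 0.206 and 0.218. C2 had -0.61 ± 0.53 (edgeR adjusted p = 0.443), with 1.35, 4.13 and 2.81 CPM in hypidone libraries, and MCAO 4 in that range at 2.25 CPM. Across the 10 members MCAO 4 lay within the hypidone range for 4 (C1s1, C2, C3ar1, Serping1), below it for C3 and above it for the other 5.

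These calls also moved with single libraries. Without hypidone 2, 7 or 8, or without MCAO 6, 0 of the 10 were called, with edgeR adjusted p of 0.0593 to 0.146 for the 4 genes. The call of C3ar1 was lost as well without control 4, control 6 or MCAO 5 (edgeR adjusted p = 0.0636, 0.0660 and 0.0780). With MCAO 5 left out the changes were -1.14 for C1qa, -1.29 for C1qb, -1.48 for C1qc and -1.30 for C3ar1. C4b was called without control 5 (edgeR adjusted p = 0.0399) and, with C3, without MCAO 4 (edgeR adjusted p = 0.0304 and 0.0264). A fit of the hypidone and MCAO libraries alone called only C1qc. The authors' deposited table listed 7 members lower with the drug at a q under 0.05, namely the 3 C1q chains, C1ra, C3, C3ar1 and C4b.

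The last comparison sets hypidone against control, sharing libraries with both of the others. With edgeR 0 of the 10 members were called, against 0% of all genes, and DESeq2 and limma voom also called 0. At an unadjusted p under 0.05 there was 1 member, C2, against 131 of all 14756 genes. C2 had 2.77 ± 1.39 CPM in hypidone and 0.941 ± 0.409 CPM in control (SD, n = 3 each), a log2 fold change of 1.55 ± 0.55 (edgeR adjusted p = 0.999868). The 3 C1q chains had small changes of 0.23 ± 0.49, 0.34 ± 0.53 and 0.30 ± 0.51. These SEs rest on a spread estimated from all 9 libraries, so the wide MCAO spread enters them. The SD of these chains was 9.21% to 11.3% of the mean in hypidone, 8.48% to 12.3% in control and 80.5% to 87.9% in MCAO. A fit of the hypidone and control libraries alone also called 0 members. The absence of a call does not show that levels were equal. C3ar1 had 1.30 ± 0.84, and all 3 hypidone libraries (4.04 to 7.20 CPM) were above all 3 control libraries (1.74 to 2.91 CPM). C1qb also had groups that did not overlap, at 86.6 to 103 CPM with the drug and 71.6 to 84.1 CPM in control. These were 2 of 10 members with hypidone above control, and 0 were below, against 3.86% and 2.71% of all genes. C3 had -0.44 ± 1.08, and 1.20 without control 5.

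Hypidone 7 stood out in the inhibitor and in C2. Serping1 was at 7.05, 27.9 and 14.4 CPM in hypidone 2, 7 and 8, so hypidone 7 exceeded MCAO 4 and 6. C1s1 was at 1.04, 3.10 and 1.52 CPM in the same libraries. The 6 fibroblast and meningeal markers, collagens and matrix genes among them, summed to 54.2, 332 and 132 CPM there, against 55.3, 982 and 136 CPM in MCAO 4, 5 and 6 and 41.9 to 92.6 CPM in control. Their part in these levels was not tested. Without hypidone 7 the log2 fold change of Serping1 was -1.88 against MCAO and 0.61 against control, neither of them called (edgeR adjusted p = 0.166 and 1).

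The C1q transcripts were set against a list of 12 microglial markers, since in bulk tissue fewer cells of a type and less RNA per cell cannot be told apart. The markers summed to 657, 675 and 566 CPM in hypidone 2, 7 and 8, to 548, 1831 and 914 CPM in MCAO 4, 5 and 6, and to 549, 559 and 516 CPM in control 4, 5 and 6. In MCAO 4 that sum lay within the control range, while the 3 C1q chains summed to 339 CPM against 189 to 228 CPM in control. The ratio of C1q to markers was 0.393, 0.410 and 0.402 in hypidone libraries, 0.618, 1.21 and 0.994 in MCAO libraries, and 0.415, 0.367 and 0.365 in control libraries. All 3 MCAO libraries were above the other 6 in this ratio, and hypidone and control overlapped.

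The markers themselves did not move as one. In MCAO 4, 8 of the 12 were below all control libraries and 3 were above them. In MCAO 5, 1 was below and 10 were above, and in MCAO 6, 6 were below and 5 above. In hypidone 2, 7 and 8, 8, 11 and 5 were above all control libraries, and 1, in hypidone 8, was below. The chemokine receptor gene Cx3cr1 was at 23.3, 108 and 31.5 CPM in MCAO 4, 5 and 6 and at 59.3 to 66.8 CPM in control. The purinergic receptor gene P2ry12 was at 30.5, 52.1 and 38.1 CPM in MCAO and at 48.0 to 55.3 CPM in control. Trem2, a microglial lipid receptor gene, was at 29.2, 133 and 61.8 CPM in MCAO and at 13.2 to 17.6 CPM in control. In MCAO 4 and 6 the C1q chains and Trem2 were above all control libraries while Cx3cr1 and P2ry12 were below them. The 10 macrophage markers summed to 39.0, 1792 and 211 CPM in MCAO 4, 5 and 6, against 20.0 to 24.8 CPM in control, and to 38.9 to 124 CPM in hypidone libraries. Lyz2, the lysozyme gene of macrophages, made 1468 CPM of the sum in MCAO 5. In control 4 Ccr2 had 0 counts, and in all other libraries each of the 10 markers had counts. Their part in the rise of C1q and C3ar1 was not tested. The 4 liver transcripts in the table, which would mark plasma-producing cells, summed to at most 1.04 CPM in any library. The 7 astrocyte markers, 1 of them called higher in MCAO against control, summed to 4352, 6911 and 8083 CPM in MCAO 4, 5 and 6. Their sums were 4090 to 4910 CPM in control and 4651 to 5068 CPM in hypidone libraries. The part of the astrocyte markers in the levels of C3 and C4b was not tested.

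**Figure D3:**
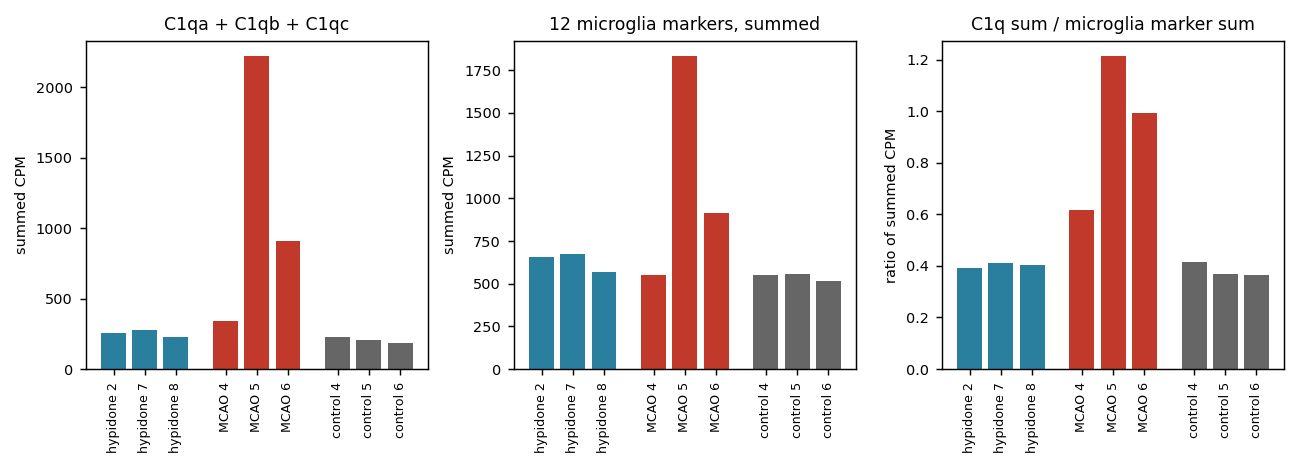
Summed CPM of the 3 C1q chains (left), summed CPM of 12 microglia markers (centre) and their ratio (right) in each library, ordered hypidone, MCAO and control. MCAO 4 has a marker sum of 548 CPM, within the control range, and a ratio of 0.618, above all hypidone and control libraries.

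The balance of the 3 chains shifted modestly between libraries, with each chain at 25.6% to 40.9% of their total in FPKM. Of the C1q total in FPKM, C1qb made 37.3% to 39.0% in hypidone, 37.2% to 40.9% in MCAO and 36.3% to 37.9% in control libraries. C1qc made 31.5% to 32.5%, 32.5% to 37.3% and 30.8% to 32.5% in these groups, and C1qa 29.3% to 30.5%, 25.6% to 29.1% and 29.6% to 32.9%. The share of C1qa was lowest in MCAO 5 and 6, at 25.7% and 25.6%. MCAO 4, at 29.1%, was barely under hypidone 2, at 29.3%, too close to be told apart here. C1ra and C1s1 together were 0.0116 to 0.0160 of the C1q total in hypidone, 0.00543 to 0.0128 in MCAO and 0.00512 to 0.0188 in control libraries, in FPKM, ranges that overlap.

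Across the 9 libraries log2 CPM of the C1q chains correlated at 0.996 or more with each other. These libraries share group and MCAO 5, so the values describe the pattern only. C3 and C1ra had the lowest correlation among members, at r = 0.42. Among 12559 other genes, those most like the mean of the C1q chains included Tcn2, Ifnar2, Ifi30 and Tyrobp, with r of at least 0.99. For C3ar1 they were Tgfbr2, Jak2, Spi1, Igsf6 and Cmklr1 (r = 0.99 for each), Spi1 being the gene for PU.1. For C3 they were Slc14a1, Hk2, Arhgap17, Ccdc9b and Plscr4 (r = 0.97 to 0.98). For C4b they were Ap4e1, Gli3, Jmjd1c, Folh1 and the adhesion receptor gene Cd44 (r = 0.96 to 0.98). For Serping1 they were Lamb2, Mxra8, Zic2, Anxa1 and Anxa2 (r = 0.98 for each).

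Of 47 other complement genes, 44 were in the table and 30 had enough counts. In MCAO against control 6 rose and 2 fell, which is 26.7% of them called against 20.4% of all tested genes. On the initiating side, the lectin pathway genes Fcna, Colec11 and Colec12 rose and Masp2 fell. Fcna, a ficolin made by macrophages, had 340 counts in MCAO and 6 in control over 3 libraries each, a ratio of 52.3 with an exact 95% interval of 23.8 to 143 for counting error only. Colec12, a scavenger receptor collectin, was at 16.1, 76.4 and 25.0 CPM in MCAO 4, 5 and 6 and at 6.84 to 12.1 CPM in control, and Colec11 changed by 1.94 ± 0.54. Masp2, a lectin pathway protease, had 7 counts in MCAO and 35 in control, a ratio of 0.184 (interval 0.0691 to 0.421), whereas Masp1 showed 0.02 ± 0.21 (edgeR adjusted p = 0.945).

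Regulators moved both ways. Cd59a, a membrane inhibitor of the lytic pore, rose by 1.25 ± 0.33 (edgeR adjusted p = 0.0313), while its paralog Cd59b had -1.53 ± 0.52 (edgeR adjusted p = 0.0648). Csmd2, a neuronal protein with complement control domains, fell by 0.65 ± 0.19 on the log2 scale (edgeR adjusted p = 0.0424). The 7 neuron markers summed to 5582 to 10486 CPM in MCAO, 7952 to 11946 CPM in control and 10608 to 11539 CPM in hypidone libraries. In MCAO against control 0 of these markers were called. Their part in the level of Csmd2 was not tested. Among receptors, Itgb2, the beta chain of complement receptor 3, rose by 2.67 ± 0.64 (edgeR adjusted p = 0.0218), but its partner Itgam was at 12.2, 92.6 and 24.1 CPM in MCAO and 23.1 to 29.6 CPM in control (edgeR adjusted p = 0.401). The C5a receptor gene C5ar1 had 2.84 ± 0.92 (edgeR adjusted p = 0.0561). Terminal pathway genes C6, C8a, C8b and C9 had 35, 8, 24 and 1 counts in all, below what could be tested.

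In hypidone against MCAO 3 of the 30 fell, Fcna, Cd59a and Itgb2, and 1 rose, Csmd2, which is 13.3% called against 16.5% of all genes. Fcna had 25 counts in hypidone and 340 in MCAO, a ratio of 0.0787 (exact 95% interval 0.0502 to 0.118). Cd59a was at 3.34 to 3.97 CPM with the drug and 5.63 to 12.9 CPM in MCAO, and changed by -1.18 ± 0.33 (edgeR adjusted p = 0.0431). Itgb2 changed by -2.26 ± 0.63 (edgeR adjusted p = 0.0404), with hypidone 7 and MCAO 4 both at 11.9 CPM, where the groups met. Csmd2 was at 33.9 to 46.4 CPM with the drug and 19.4 to 24.9 CPM in MCAO, and rose by 0.80 ± 0.19 (edgeR adjusted p = 0.0253). In hypidone against control 0 of the 30 were called by edgeR, DESeq2 or limma voom, and 0 had an unadjusted p under 0.05 with edgeR. With single libraries left out the number higher in MCAO against control lay between 1 and 11, and the number lower with the drug between 0 and 10.

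**Figure D4:**
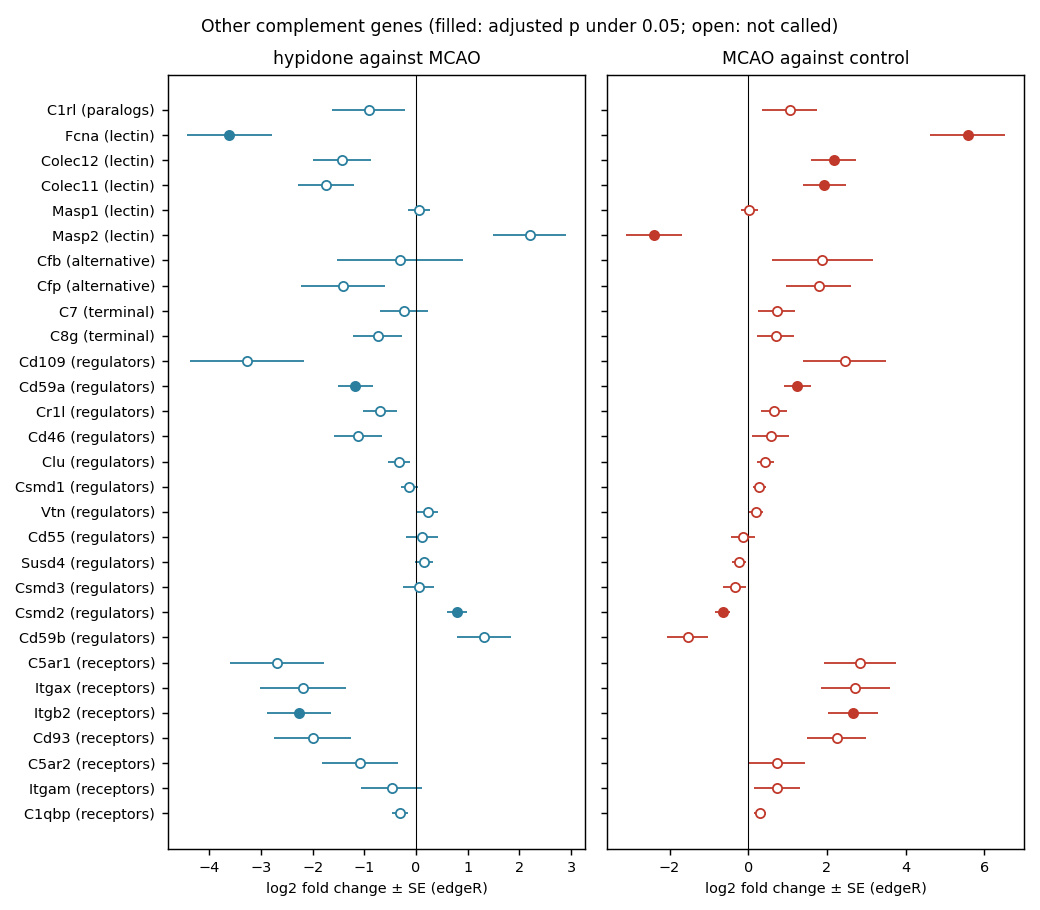
Log2 fold change with its SE (edgeR) of 29 of the 30 other complement genes tested, by role, for hypidone against MCAO (left) and MCAO against control (right). Filled points have an adjusted p under 0.05, 4 on the left and 7 on the right, and the gene not drawn was called in MCAO against control.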

How the data were processed

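Per the labels' protocols, RNA of mouse brain was isolated with TRIzol and sequenced from VAHTS Universal V6 libraries. The authors deposited gene counts that are not normalized. They also deposited FPKM values, made from those counts with library totals and gene lengths. The third deposited table holds their comparisons, each with a fold (ratio) and q-value, per the file headers. The submitters' processing notes name mm10 and DESeq2. No aligner, counter or strand setting is named in the sources used here, so the division of reads between overlapping or near-identical genes is unknown.

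Counts were filtered with filterByExpr, scaled with TMM and fitted in 1 edgeR 4.0.16 quasi-likelihood model of all 9 libraries (R 4.3.3), with 6 residual degrees of freedom, two-sided tests and Benjamini-Hochberg adjustment over 14756 genes at 0.05. SE is the log2 fold change over the root of F. CPM are TMM-scaled, and log2 CPM for correlations used a prior count of 2. FPKM served for comparing genes. The fit was tested on simulated data in which each gene had the same spread in every group. The simulation does not cover a spread that differs between groups, as that of the C1q chains did. The members, the gene lists and the tests were chosen with earlier results of these data known. The genes named are the members, other complement genes from a fixed list, marker lists, and the 5 genes most like a member's pattern. Alternatives used DESeq2 1.42.0 and limma 3.58.1. No 2 libraries of a group agreed within sampling noise (chi-square per degree of freedom of at least 14.9). Some genes that the lists hold are not reported here.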

Additional observations from a re-analysis of the deposited data

How the results depend on the processing

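The direction of every member was the same under all alternatives run for MCAO against control and for hypidone against MCAO. For hypidone against control C3, at -0.44, was 0.85 with limma voom and quality weights, between -0.88 and 1.20 with single libraries left out (1.20 without control 5) and 1.21 with control 5 and MCAO 5 both left out, an alternative added after seeing the data. The number of members higher in MCAO against control, 8, was 3 with log2 FPKM plus 1, 0 in a fit of only the groups compared and 5 with control 5 and MCAO 5 left out, and ran from 0 to 10 with single libraries left out. The number lower with hypidone against MCAO, 4, was 0 with log2 FPKM plus 1 or 0.1, 1 with only the groups compared, and 0 to 6 with single libraries left out. For other complement genes in MCAO against control, the 6 higher were 10 with DESeq2, 11 with voom, 2 and 3 with log2 FPKM plus 1 and plus 0.1, 1 with only the groups compared, and 1 to 11 with single libraries left out. The 2 lower were 1 with library totals, no filter, a CPM of at least 1 in 3 libraries, or log2 FPKM plus 0.1, 0 with log2 FPKM plus 1 or only the groups compared, and 0 to 2 with single libraries left out. In hypidone against MCAO, the 3 lower were 9 with DESeq2, 11 with voom, 6 with control 5 and MCAO 5 left out, and 0 to 10 with single libraries left out, and the 1 higher was 3 with voom, 3 with both left out, and 0 to 1 with single libraries left out. The cause of these shifts was not tested. Control and MCAO libraries share title numbers 4, 5 and 6, but no label says that a number marks a pair, so they are not taken as pairs. Deviations of same-numbered libraries correlated at 0.12, 0.12 and -0.04, and those of differently numbered libraries at -0.15 to 0.12. With deviations taken from means of 3 libraries, these values cannot decide whether the numbers mark pairs. With the replicate block 0 members and 0 other complement genes were called in either direction, as were 0 genes of the whole table. C3 had as few as 4 counts in a library, which limits the precision of its level there.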
